A study of Mus musculus with 2 samples.

Results

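The genes described here are 10 genes that mark tissue macrophages: Csf1r, Adgre1, Cd68, C1qa, C1qb, C1qc, Cd163, Mrc1, Lyz1 and Lyz2. They were chosen by name among the probes outside the controls on both arrays, and their 13 probes are a small part of 39422 probes. Some probes had no gene name, and the named ones covered 24331 genes. The study compared skin of newborn mice with and without Pla2g4e, a cytosolic phospholipase A2 linked to the making of N-acylethanolamines. One array held RNA of Pla2g4e+/+ (wild type) skin and the other RNA of Pla2g4e-/- (knockout) skin, both from strain C57BL/6N at postnatal day 0, with no treatment named. Each array carried a pool of equal RNA amounts from 5 animals, so the spread between animals is not seen. With 1 array per genotype the differences have no replicate check, and none carries a test or a p-value. The labels do not state which part of Pla2g4e was removed or by which allele.

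Both arrays showed skin: the basal keratins Krt5 and Krt14 read 247197 and 92691 in the wild-type pool and 224586 and 87086 in the knockout pool. The scanner software marked 78% of wild-type and 80.8% of knockout probe readings as well above background. A probe of Pla2g4e, the targeted gene, read 662 on the wild-type array and 320 on the knockout array, or 51.4% of the wild-type level after scaling. A second one was near background, at 10.6 and 11.7. The Y-linked gene Ddx3y had a signal of 2893 in wild type against 2.36 in knockout, and Xist was 3.87-fold higher in knockout by its brighter probe. Sex composition therefore differed between the pools, as did their position on the shared slide, and neither can be told apart from genotype in any value below.

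Macrophages of the skin lie mainly in the dermis, where they engulf dead cells and debris, take up proteins from the blood and sample microbes. Their survival depends on the CSF1 receptor, which binds CSF1 and, in epidermis, IL-34. They are a main source of complement C1q, whose A, B and C chains assemble into the protein that starts the classical pathway. Scavenger receptors such as CD163 and the mannose receptor are held highest by resident and anti-inflammatory macrophages, and lysozyme by macrophages and neutrophils alike.

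Signals come from probes of 60 bases, and 4 of them are shown, those of the member with the largest difference, of the lowest member and of 2 chains of C1q. Their sequences are as deposited, with positions on mm9, and each holds at least 1 reading frame with no stop codon. Capitals mark the only run of 16 or more bases that any member probe shared with another probe on the array, a run of the Lyz2 probe found in a probe for Angpt2.
Cd163, chr6:124270436-124270495, plus strand: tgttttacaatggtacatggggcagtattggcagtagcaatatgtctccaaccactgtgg
Lyz2, chr10:116719175-116719234, minus strand: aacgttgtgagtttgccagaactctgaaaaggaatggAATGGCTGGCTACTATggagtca
C1qa, chr4:136452409-136452468, minus strand: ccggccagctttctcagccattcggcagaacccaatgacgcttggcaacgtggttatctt
C1qb, chr4:136436578-136436637, minus strand: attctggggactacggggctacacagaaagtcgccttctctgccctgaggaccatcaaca
The Lyz1 and Lyz2 probes shared no such run with each other. Across the 13 probes the share of G and C was 35% to 55%, with a median of 45%, against 41.7% over all probes.

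The C1q genes are neighbours, and so are the lysozyme genes. The probes of C1qb, C1qc and C1qa lie within a short stretch of chromosome 4, with 9128 bases between the first 2 and 6583 between C1qc and C1qa. Those of Lyz2 and Lyz1 lie 5627 bases apart on chromosome 10. RefSeq windows before the transcription start (assembly GRCm38.p6) were matched by symbol for 7 members. The 250 bases before the starts of Lyz1 and Lyz2 are shown because these neighbours had the lowest differences; 152 bases (60.8%) are identical at the same distance from the start, and capitals mark the longest identical run, the 50 bases next to it.
Lyz1, chr10:117292869-117293118, minus strand: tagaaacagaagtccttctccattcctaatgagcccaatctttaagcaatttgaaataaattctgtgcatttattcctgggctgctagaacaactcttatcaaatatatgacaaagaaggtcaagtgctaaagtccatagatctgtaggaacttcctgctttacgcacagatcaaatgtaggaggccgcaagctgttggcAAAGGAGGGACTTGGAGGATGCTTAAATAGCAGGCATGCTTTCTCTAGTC
Lyz2, chr10:117282273-117282522, minus strand: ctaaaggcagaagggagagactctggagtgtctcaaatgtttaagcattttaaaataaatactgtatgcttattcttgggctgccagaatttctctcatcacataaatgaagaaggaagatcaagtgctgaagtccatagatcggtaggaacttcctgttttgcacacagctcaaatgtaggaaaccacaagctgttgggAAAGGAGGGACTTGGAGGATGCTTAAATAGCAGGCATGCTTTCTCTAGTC
The windows of C1qb and C1qc, neighbours that differed the same way, are shown, and both hold the letters GAGGAA. C1qa differed the same way and lies nearer to C1qc, but no window of it is shown. Capitals mark the letters GAGGAA, or GAGGAAGT, in either strand's reading. GAGGAAGT is a site form bound by PU.1, the lineage factor of macrophages, and holds the shorter motif.
C1qb, chr4:136886201-136886450, minus strand: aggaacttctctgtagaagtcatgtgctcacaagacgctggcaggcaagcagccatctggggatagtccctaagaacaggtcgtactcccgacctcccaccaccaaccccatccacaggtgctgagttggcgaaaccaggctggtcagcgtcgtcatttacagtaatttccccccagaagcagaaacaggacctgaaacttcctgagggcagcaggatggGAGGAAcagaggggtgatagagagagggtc
C1qc, chr4:136892915-136893164, minus strand: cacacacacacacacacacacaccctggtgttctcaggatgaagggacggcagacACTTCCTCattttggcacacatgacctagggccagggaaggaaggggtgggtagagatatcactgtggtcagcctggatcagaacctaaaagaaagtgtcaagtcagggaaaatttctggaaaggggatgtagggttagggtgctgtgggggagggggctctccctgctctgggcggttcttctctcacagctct
Over windows of 300 bases, which add 50 after the start, GAGGAAGT on either strand was held by 1 of 7 member windows (C1qc) and by 3.2% of all 32851 windows. GAGGAA was held by 4 of 7 (Mrc1, Cd68, C1qb and C1qc) and by 28.3% of all windows.

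Macrophage genes were detected in newborn skin of both genotypes, and most differed little between the pools. All 22 spots of the 13 probes were well above background on both arrays, with 0 saturated and 0 marked as outliers. Differences below are log2 values of the knockout pool minus those of the wild-type pool, after each array was set to its own 75th percentile, and the fold size used for counting was 1.5. Of the 10 genes, 1 reached 1.5-fold in the direction of the knockout pool, the haemoglobin scavenger receptor Cd163, against 6.74% of 19431 measured genes. None of the 10 was at least 1.5-fold lower, against 4.50% of measured genes; at 2-fold the shares of all genes were 2.24% and 1.45%. The median difference was 0.23 for the members and 0.01 for all genes, and 7 of 10 members lay above 0, against 51.8% of all genes. Values and counts over whole skin cannot tell fewer cells of a type from less RNA per cell.

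**Figure D1:**
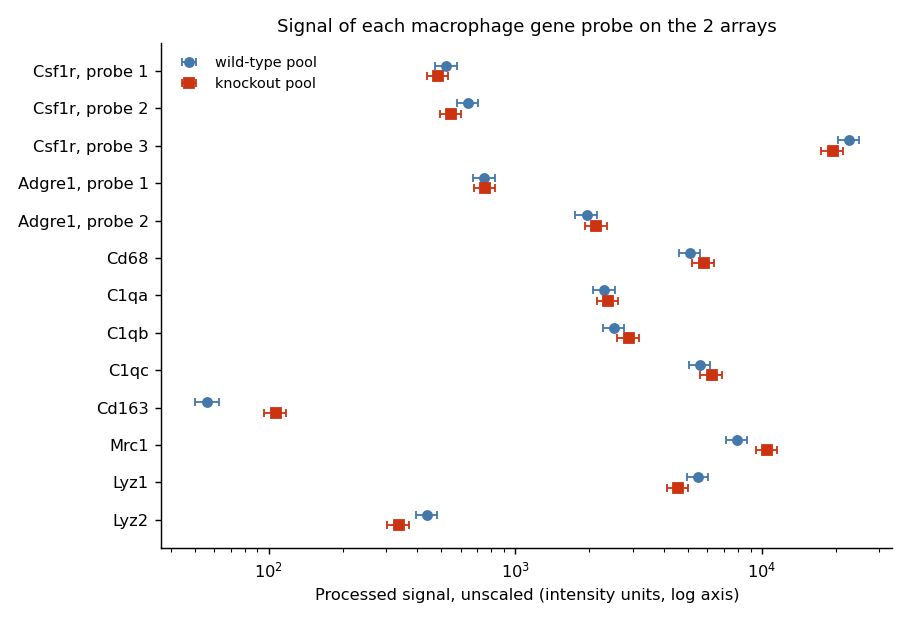
Processed signal of each of the 13 probes in the wild-type pool (blue circles) and the knockout pool (red squares), unscaled, on a log axis; bars are the scanner software's error for a spot. Probes bind with unlike strength, so only the 2 points of a row can be compared. For Cd163 (56.3 and 107), Mrc1 (7942 and 10518) and Lyz2 (438 and 336) the bars stand clear of each other.

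Csf1r encodes the receptor on which most macrophages depend, and its 3 probes read slightly lower in the knockout pool or nearly the same. The probe at mm9 chr18:61290725-61290784 read 22580 in wild type and 19395 in knockout, with spot errors of 2258 and 1939. Its difference was -0.13, with a scanner error of 0.20. The probe at chr18:61289398-61289456 read 642 and 549 and also differed by -0.13. The third, at chr18:61278661-61278720, read 526 and 487 and differed by -0.02. All 3 differences were smaller than their scanner error, and the wild-type reading was the higher one each time.

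Adgre1 encodes F4/80, the adhesion receptor by which mouse macrophages are commonly stained. Its brighter probe, at chr17:57622868-57622927, read 1949 in wild type and 2132 in knockout, a difference of 0.22. Its other probe, at chr17:57620350-57620409, read 749 and 753, a difference of 0.10. Both lay above 0 and within 1.1 times the scanner error of 0.20. Cd68 encodes a glycoprotein of late endosomes and lysosomes. Its probe at chr11:69477775-69477834 read 5119 and 5813, which was 1.21-fold higher in the knockout pool, or 0.27 log2.

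The 3 chains of C1q were all slightly higher in the knockout pool. C1qa, the A chain, read 2299 in wild type and 2380 in knockout, a difference of 0.14 after scaling. C1qb, the B chain, read 2516 and 2886, 1.22-fold higher (0.29). C1qc, the C chain, whose probe lies at chr4:136445766-136445825, was printed in 10 spots on each array. Over them it read from 5054 to 5906 in the wild-type pool, with a median of 5653, and from 5624 to 6618 in the knockout pool, with a median of 6231. The ranges of the spots overlapped, but each spot was higher in the knockout pool than the spot at the same position in the wild-type pool. After scaling, the 10 differences ran from 0.22 to 0.28, with a mean of 0.25 ± 0.018 (SD, 10 spots). These spots share 1 RNA pool per array, so their SD describes the printing and reading of the arrays and leaves out the animals. Set against the scanner error of 0.20, the differences were 0.7 times it for C1qa, 1.4 times for C1qb and 1.2 times for C1qc. Without scaling C1qa stood at 0.05. None of the chains reached 1.5-fold.

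**Figure D2:**
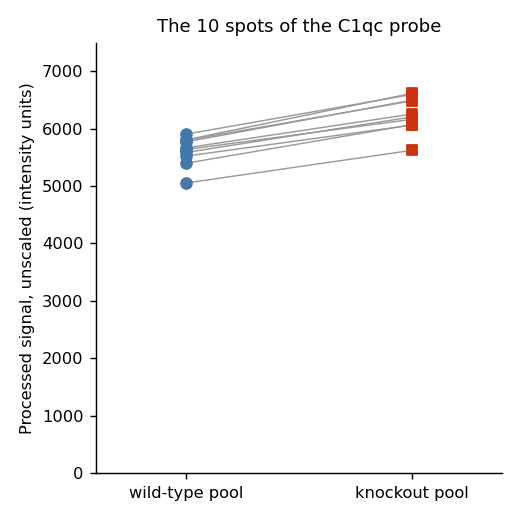
Unscaled processed signal of the 10 spots of the C1qc probe in the wild-type pool (blue circles) and the knockout pool (red squares); lines join spots at the same position on the 2 arrays, and the axis starts at 0. Every line goes up, from a median of 5653 to a median of 6231, while the spots within an array span 5054 to 5906 and 5624 to 6618.

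Cd163 was the member with the largest difference, and Mrc1 was next. CD163 takes up complexes of haemoglobin and haptoglobin and is a textbook target of glucocorticoids in macrophages. Its probe read 56.3 in wild type and 107 in knockout, with spot errors of 6.29 and 10.9. Before background subtraction the pixels of the spot averaged 101 and 158, over local backgrounds of 25 and 26, so the reading was dim on both arrays. After scaling it was 2.03-fold higher in the knockout pool, or 1.02 log2, which was 4.7 times the scanner error of 0.22. Among all measured genes, 97.8% had a lower difference. Under normexp background correction, which draws dim signals together, it was 0.65 log2, still past 1.5-fold.

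Mrc1 encodes the mannose receptor, which binds glycoproteins with mannose, fucose or N-acetylglucosamine ends. Its probe at chr2:14253273-14253332 read 7942 in wild type and 10518 in knockout, with spot errors of 794 and 1052. It was 1.41-fold higher in the knockout pool, or 0.50 log2, and so stayed short of 1.5-fold. The difference was 2.4 times the scanner error of 0.20. Of all measured genes, 91% had a lower difference.

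Both lysozyme genes read lower in the knockout pool, each by less than 1.5-fold. Lysozyme cleaves the cell wall of bacteria; Lyz2 is the form of myeloid cells and Lyz1 is best known from Paneth cells of the gut. Lyz1, with a probe at chr10:116724862-116724921, read 5524 in wild type and 4568 in knockout, a difference of -0.18. Lyz2 read 438 and 336, a difference of -0.29, so that the wild-type pool was 1.22-fold higher. Transcripts of the 2 genes are alike, and a probe for one can bind RNA of the other. The difference of Lyz2 was 1.4 times its scanner error in size and that of Lyz1 0.9 times.

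**Figure D3:**
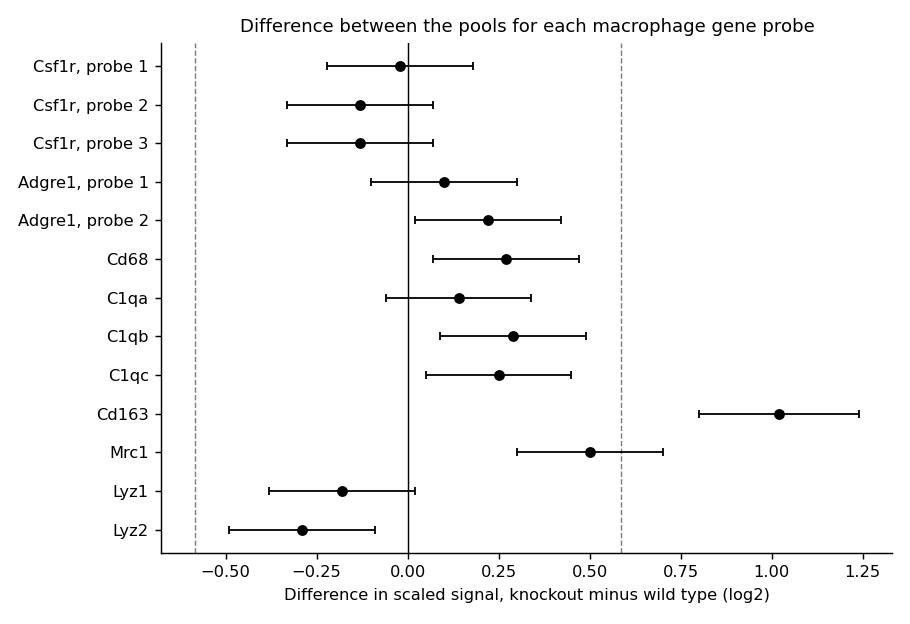
Difference in scaled signal, knockout minus wild type, on a log2 scale, for each of the 13 probes; bars are the scanner software's error of the difference, which leaves out the animals, and dashed lines mark 1.5-fold. Cd163 at 1.02 is the only probe past a dashed line; Mrc1 follows at 0.50, while Csf1r, Lyz1 and Lyz2 lie below 0.

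**Figure D4:**
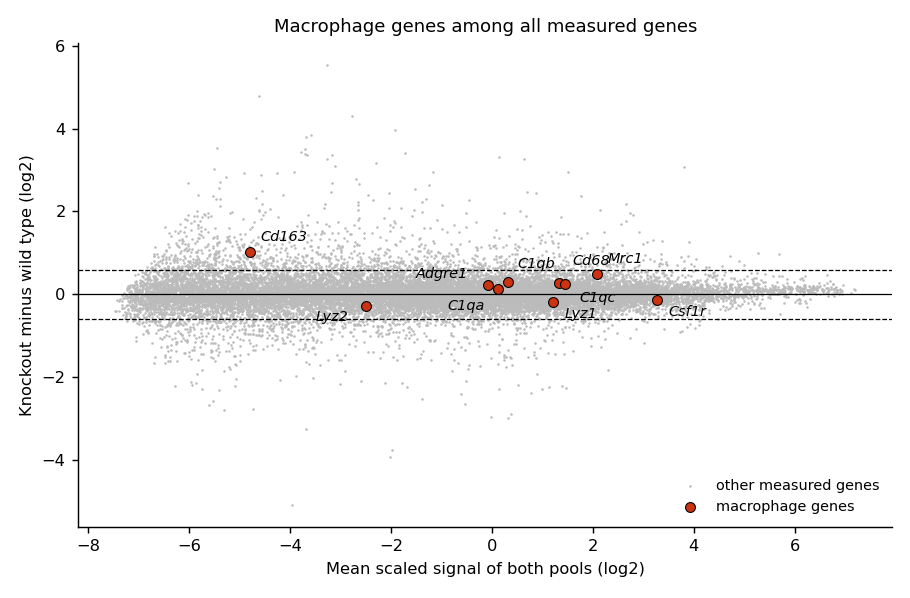
Mean scaled signal of both pools (x axis, log2) against the difference knockout minus wild type (y axis, log2) for 19431 measured genes; the 10 macrophage genes are red and dashed lines mark 1.5-fold. Cd163 lies among the dim genes, where the spread of differences is wide, and the other 9 lie between the dashed lines.

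Growth factors and lineage factors of macrophages differed little. The ligands of the receptor were both measured. Csf1 read 2601 in wild type and 2613 in knockout by its brightest probe, a difference of 0.10. Its 3 probes ran from 0.10 to 0.39, and their average was 0.28. Il34 read 3534 and 3398, a difference of 0.03 that turned negative without scaling. Of 15 measured genes, 1 was at least 1.5-fold higher, Irf8 (0.73), a factor of monocyte and dendritic cell fate, and 0 were lower. Runx1 (0.43, with a second probe at -0.13) was next, and Tgfb1 (-0.30) and Cebpa (-0.09) were lowest. Spi1, which encodes PU.1, stood at 0.16 from a dim probe (40.1 and 42.1). The list's median was 0.16. For the counts of this list and of those that follow, the shares over all measured genes were 6.74% higher and 4.50% lower.

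Other scavenger and engulfment receptors held more genes past 1.5-fold. Of 16 measured, 4 were higher: Stab2 (1.16) and Stab1 (0.59), stabilins that clear hyaluronan and modified proteins, Msr1 (0.98), the class A scavenger receptor, and Pros1 (0.66), a bridging ligand of the MERTK family. None was lower at that size; Timd4, a phosphatidylserine receptor, was lowest at -0.57, and Cd36 followed at -0.11. Timd4, from a dim probe, was past 1.5-fold lower in 4 of 9 alternatives and ran from -0.67 to -0.13. Msr1 read 158 and 293, and its 2 probes differed by 0.86 and 0.98. Stab2 was dim, at 48.9 and 103. Stab1 reached 1.5-fold under 6 of 10 alternative settings and Pros1 under 9 of 10. Stabilins are made by lymphatic and sinusoidal endothelium as well, and 6 of 15 endothelial genes were at least 1.5-fold higher beside them, with a median of 0.54 and all 15 above 0, though Kdr was -0.06 without scaling. Emcn (0.84) and Esam (0.77) were highest and Flt4 (0.09) and Kdr (0.03) lowest. The part of the vessels in the stabilin values was not tested. The list's median was 0.22.

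Genes often found with Cd163 and Mrc1 in dermal macrophages lay on both sides of 0. Of 18 measured, 2 were at least 1.5-fold higher, Ms4a4a (1.51), a tetraspan gene of macrophages, at 711 and 1901, and Lyve1 (0.68), a hyaluronan receptor that lymphatic vessels share, at 4046 and 6089. The chemokine Ccl7 was the 1 lower gene at -1.11, with readings of 2722 and 1181, and Ccl8 and Mgl2 came next, both at -0.26. F13a1 (0.55, with a second probe at 0.70) and Pf4 (0.56) stood just under 1.5-fold. With its probes averaged F13a1 passed that size, at 0.62, and the count higher ran from 2 to 3 over the alternatives. Folr2 (0.01), Cbr2 (-0.04) and Clec10a (0.04) were close to 0, and without scaling Folr2 and Clec10a lay below it. The list's median was 0.06, and it was -0.03 without scaling.

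General markers of mononuclear phagocytes leaned slightly upward, as the 10 members did. Of 22 measured genes, 17 lay above 0, with a median of 0.31. At least 1.5-fold higher were 2, the Fc receptor Fcgr4 (0.72) and the sialic acid receptor Siglec1 (0.60), and 0 were lower. Over all measured genes 6.74% were higher at that size, and the count of 2 ran from 0 to 3 over the alternatives. Lowest were Gpnmb (-0.44) and Aif1 (-0.14), and Ptprc, the common leukocyte antigen, stood at 0.12. Siglec1, at 101 and 144, kept that size in 4 of 9 alternatives.

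Complement genes outside C1q showed a like shift. Of 19 measured, 15 lay above 0, with a median of 0.24. The proteases that join C1q, C1ra and C1s1, stood at 0.13 and 0.32 (a second C1s1 probe at -0.27), their inhibitor Serping1 at 0.36, C4b at 0.29 and C3 at 0.19. The 2 past 1.5-fold were C6 (0.81) and Hc (0.73), components of the terminal pathway with dim probes (41.5 and 68.4 for C6, 29.6 and 46.1 for Hc). Under normexp both calls were lost, at 0.40 for C6 and 0.36 for Hc, and among brighter genes alone the count was also 0. Lowest were the receptor C5ar1 (-0.32) and Cfd (-0.17).

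Genes for the handling of haemoglobin and iron differed both ways. Of 14 measured, 4 were at least 1.5-fold higher: Lcn2 (1.79) and Ltf (1.19), iron-binding proteins of neutrophils and inflamed epithelium, Slc11a1 (0.91), a metal transporter of phagosomes, and Hmox1 (0.74), the enzyme that breaks down haem. Tfrc, the transferrin receptor, was the 1 lower gene at -1.43, with readings of 1374 and 479, and its 3 probes ran from -1.43 to -1.33. Haptoglobin (Hp, -0.11), haemopexin (Hpx, -0.18), Blvra (-0.20) and the iron exporter Slc40a1 (-0.13) lay below 0. Fth1 (0.29) and Ftl1 (0.21) lay above it. In the main setting 8 genes of the list were above 0 and 6 below. The median was 0.11.

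**Figure D5:**
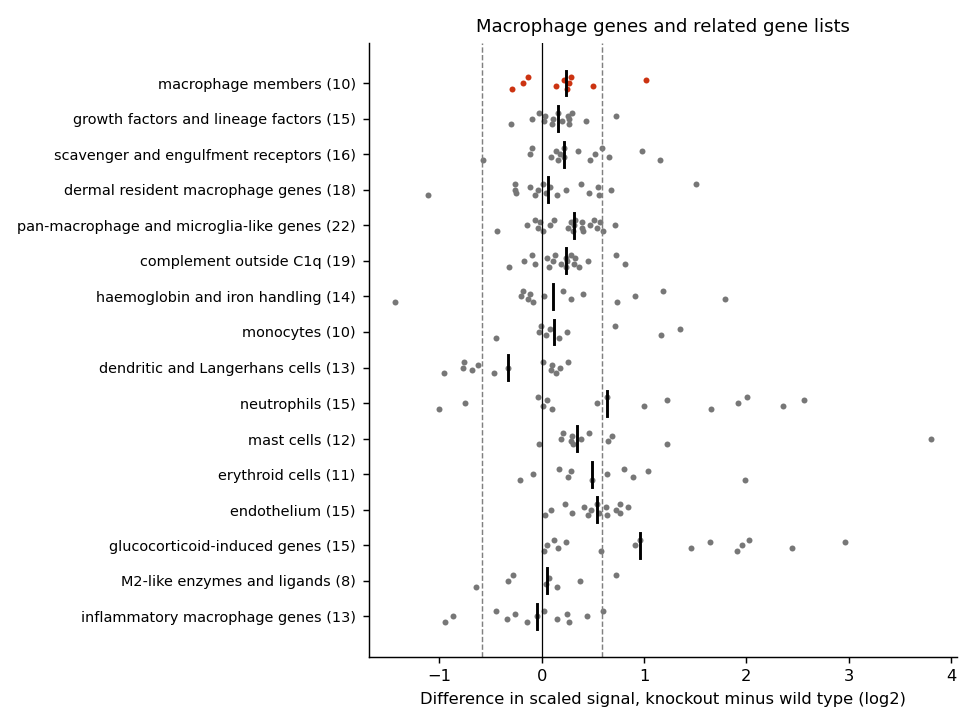
Difference in scaled signal, knockout minus wild type (log2), for every measured gene (points) of the 10 macrophage genes (red) and of 15 related lists (grey), with the number measured in brackets; black bars are medians and dashed lines mark 1.5-fold. Medians are 0.23 for the macrophage genes, 0.96 for glucocorticoid-induced genes and -0.33 for dendritic and Langerhans cell genes.

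Genes read with macrophage activation were few and split. Of 8 measured genes of alternative activation, Tgm2 (0.73), a transglutaminase, was the 1 at least 1.5-fold higher and the chemokine Ccl17 (-0.64) the 1 lower. Il4ra stood at 0.37, Il4 at -0.33 and Arg1 at -0.28, and the median of 0.05 turned to -0.04 without scaling. The Ccl17 call was lost under normexp, at -0.16, and among brighter genes alone. Of 13 measured inflammatory genes, Ccl2 (-0.94) and Tnf (-0.87) were the 2 lower and Il1b (0.60) the 1 higher, followed by Cd40 (0.44). Il1b, at 95.6 and 136, reached that size in 4 of 9 alternatives, and Tnf, at 93.5 and 48.1, was -0.35 under normexp, short of that size. Their median was -0.05.

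Markers of other cells that share genes with macrophages gave mixed values. Of 10 measured monocyte genes, 3 were at least 1.5-fold higher: Chil3 (1.35), Plac8 (1.17) and Ly6c1 (0.72). Ly6c1 was bright, at 22178 and 34304, and no probe was matched to Ly6c2. Which cells gave the Ly6c1 signal was not tested. Ccr2, the receptor by which monocytes leave the marrow, read 131 and 121 and stood at -0.03, and Nr4a1 was lowest at -0.45. Of 15 measured neutrophil genes, 8 were higher and 2 lower, with a median of 0.64, or 0.01 among brighter genes alone. The count higher ran from 2 to 8 over the alternatives. Mmp8 (2.56, from a dim probe at 21.6 and 119, and 1.30 under normexp) and S100a9 (2.36) were highest. Camp (1857 in wild type, 869 in knockout) and Padi4 (-0.75 log2, with a second probe at -0.40) were the 2 lower. Padi4 was -0.57 with its probes averaged, short of 1.5-fold, and the count lower ran from 1 to 2 over the alternatives. Lysozyme, made by neutrophils as well, read lower beside the neutrophil genes, as given above.

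In the main setting, dendritic and Langerhans cell genes had the lowest median of the 15 lists beside the members. Of 13 measured, 5 were at least 1.5-fold lower, H2-Ab1 (-0.95), Cd74 (-0.62), H2-Aa (-0.76) and H2-Eb1 (-0.77), which encode MHC class II chains and their chaperone, and Flt3 (-0.68), whose second probe had the opposite sign (1.67). The 2 highest were Cd86 (0.26) and Batf3 (0.18). Zbtb46 (0.14, with a second probe at 0.93), Ccr7 (0.10) and Itgax (0.09) also lay above 0. Of the 13 genes, 6 lay above 0 and 7 below. The median was -0.33, or -0.03 under normexp and -0.77 among brighter genes alone. Under normexp it was not the lowest, since the median of the inflammatory list was at most -0.04 in every alternative. The count lower was 3 under normexp, and Flt3 stood at 0.50 when its probes were averaged. Cd207, which defines Langerhans cells, and Xcr1 were well above background on neither array.

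Mast cell, erythroid and glucocorticoid-induced genes were higher beside Cd163. Of 12 mast cell genes, 4 were at least 1.5-fold higher, Fcer1a (3.80), Hdc (1.22), Mrgprb1 (0.69) and Cpa3 (0.65). That count ran from 2 to 4 over the alternatives. Fcer1a was dim in wild type, at 46.3 against 606 in knockout, and was 2.68 under normexp. Ms4a2 (0.19) and Mrgprb2 (-0.03) were lowest, and the median was 0.34. Mrgprb1 had a second probe of the opposite sign, at -1.05, and stood at -0.18 when both were averaged. Of 11 erythroid genes, which bear on the haemoglobin that CD163 clears, 5 were higher, the globins Hbb-y (1.99) and Hbb-b1 (0.64), the Rh genes Rhag (0.89) and Rhd (1.04), and Ahsp (0.80). Hbb-bh1 (-0.08) and Car1 (-0.21) were lowest, and the median was 0.49. Rhag was 0.50 under normexp, short of 1.5-fold. Of 15 glucocorticoid-induced genes, 9 were higher and 0 lower, all 15 lay above 0 and the median was 0.96. The DNA-binding factor Zbtb16 (2.96) and Hif3a (2.45) were highest and Tat (0.05) and Mt2 (0.02) lowest; both of the latter turned negative under some alternatives. Whether the red cell or glucocorticoid-induced genes have a part in the Cd163 value was not tested.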

How the data were processed

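Agilent 1-colour arrays (Cy3, mm9 positions, per the file headers) were quantified by the scanner software, Agilent Feature Extraction 11.5.1.1, per the submitters' processing notes. The deposited intensity of a spot was spatially detrended, which subtracts a fitted background surface, and multiplicatively detrended, per the file headers. The deposited value table holds a ratio, which equalled the processed intensity divided by 2406 (wild type) or 2273 (knockout) in all 44397 spots within 0.1%. In all, 200 ng of RNA was labelled per array, per the labels' protocols.

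Here, log2 of the processed intensity was averaged over the spots of a probe, and the array's 75th percentile over 39422 probes was subtracted. Control spots and 234 outlier spots were left out. Names came from RefSeq (GRCm38.p6) by accession (28758 probes), symbol (2029) or synonym (162), or from the file (1735), and 6745 probes had none. These naming counts include 7 probes that were lost to outlier spots. A gene was read by its brightest probe well above background on both arrays, which 19431 genes had. The steps were tested on simulated data. With 1 array per group no test was possible; the number of arrays limits the precision. By the scanner's error model, the median error of a log2 difference was 0.20, and 261 probes printed 10 times gave a median SD between spots of 0.035. Tools were Python 3.11.15 and limma 3.58.1 (normexp, offset 50).

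The members and lists were chosen with earlier results of these data known. A gene of 1 list is not reported here, and its list is counted without it. Named genes are all members, the 2 highest and 2 lowest of each list, and genes that spell out a count of 5 or fewer; others were chosen after their values were seen. There were 10 alternatives: 4 scalings, normexp, averaged probes, outliers kept, the deposited table, removal of signal-dependent bias and brighter genes alone.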

Additional observations from a re-analysis of the deposited data

How the results depend on the processing

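Each of the 10 members kept its sign in every alternative that measured it. Of 98 such values 97 stayed within the scanner error of the difference. The exception was Cd163 under normexp, at 0.65 against 1.02. This count says little about robustness, because most alternatives could hardly move a member. Leaving out scaling shifted each difference by -0.09 log2, against a median scanner error of 0.20. The deposited table divides each array by a constant, which is also a uniform shift. No member spot was marked as an outlier, and the brighter set only drops genes. Averaging probes could change only Csf1r and Adgre1. The count of members at least 1.5-fold higher was 1 except among brighter genes alone, where it was 0 because Cd163 and Lyz2 were left out; the count lower was 0 throughout, and the median ran from 0.14 to 0.24. Over all measured genes, 1309 reached 1.5-fold upward and 875 downward, so 59.9% of these were higher. That share was 45.7% with no scaling, with 1002 and 1192 genes. With normexp the counts were 855 and 426. Leaving out a replicate could not be run with 1 array per group. No paired analysis was possible because each group had 1 array. Dim probes such as that of Cd163 limit how firmly its difference is known.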

Other observations

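Probes of the same gene disagreed for some genes of the lists used here, chosen after their values were seen. Itgam, an integrin chain of myeloid cells, ran from -0.21 to 0.36 log2 over 3 probes, and Lrp1, which clears haemopexin and haem, from 0.18 to 0.96 over 2. Hif3a ran from 0.71 to 2.45 over 3, and Per1 from -0.02 to 1.91 over 2. For these genes the brightest probe decided the value. The 3 Csf1r probes lay within -0.13 to -0.02, and the 3 Tfrc probes within -1.43 to -1.33.

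A few cytokine and granule genes were well above background on 1 array alone. Il13, a cytokine of alternative macrophage activation, read 41.4 in wild type, where it passed, and 10.1 in knockout. Mmp9, a gelatinase of neutrophils and macrophages, read 6.76 in wild type and 19.1 in knockout, where it passed. Il10 read 11.7 and 12.6 and passed in the knockout pool alone, which shows that nearly equal dim readings can fall on both sides of the mark.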
